A study of Homo sapiens with 24 samples.

Results

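The genes described are 40 members of the NRF2 antioxidant and detoxification pathway. They were chosen by name from known pathway genes, with earlier results of these data known. All 40 were among the 60641 gene symbols shared by the 24 RNA-seq libraries. The libraries came from A549, a human lung adenocarcinoma cell line known to carry a mutant KEAP1, and HCT116, a cell line from a human colorectal carcinoma. They formed 8 groups of 3 libraries. The A549 groups were WT B and the DBD KOs of MSTRG.2513.6 and MSTRG.4401.1, and the HCT116 groups were WT A, WT B and the DBD KOs of MSTRG.34636.7, of MSTRG.4401.1 and of MSTRG.2513.6. In each KO a short sequence containing the DNA binding domain (DBD) of the named noncoding transcript was deleted with CRISPR/Cas9, and no other treatment is given. The sources used here do not say whether a KO was 1 clone or whether the 3 libraries of a group were separate cultures, so p-values measure the spread between these libraries, which may be technical. MSTRG.34636.7 KO and HCT116 WT A are numbered 1A to 3A and the other libraries S8 to S25, and for this reason WT A served as the control of MSTRG.34636.7 KO, whereas the remaining KOs were set against the WT B libraries of their own line.

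NRF2, encoded by NFE2L2, is a transcription factor that binds DNA together with a small MAF protein such as MAFG. KEAP1 holds NRF2 in the cytoplasm and hands it to a ubiquitin ligase for degradation. When oxidants or electrophiles modify KEAP1, or when KEAP1 is mutated, NRF2 accumulates and raises genes for glutathione synthesis, the thioredoxin system, NADPH supply, quinone and carbonyl reduction, drug conjugation and export. The elements that it binds, called antioxidant response elements, share a core that reads TGACNNNGC.

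This core was looked for on both strands of the RefSeq promoter windows (GRCh38.p14), which run from 250 bases before to 50 bases after each start site. Of the 40 genes, 29 had a promoter entry, and AKR1B10, CBR3, SLC7A11, GSR, PRDX1, ABCC1, ABCC3, HMOX1, FTH1, ALDH3A1 and TRIM16L had none. The core occurred in a window of 11 of the 29 genes (37.9%), against 16.1% of all 27305 genes with an entry and 13.3% of all 35116 windows. The 11 were CBR1, CYP4F11, EPHX1, GCLM, GPX2, KEAP1, ME1, PGD, PIR, TXNRD1 and UGT1A6. NQO1, GCLC, SRXN1 and TXN were among the genes with an entry but no core in it. The core followed directly by an A, a subset of the former, occurred in 7 of the 29 genes (24.1%) against 3.94% of all genes. The AP-1 type motif TGANTCA, which can overlap the core, occurred in 5 of the 29 genes (17.2%) against 9.37% of all genes. A match in these letters is a description of the sequence and not a measured binding site, and sequence outside the windows was not searched. Stretches around the core are printed for 6 genes whose RNA levels are given in the comparisons below, each 5′ to 3′ on the strand of the gene, with the core in capitals.
GCLM promoter, chr1:93909431-93909489, minus strand: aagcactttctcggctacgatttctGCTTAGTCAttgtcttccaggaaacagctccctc
GPX2 promoter, chr14:64942834-64942892, minus strand: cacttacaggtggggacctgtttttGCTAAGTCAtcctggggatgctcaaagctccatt
CBR1 promoter, chr21:36069840-36069898, plus strand: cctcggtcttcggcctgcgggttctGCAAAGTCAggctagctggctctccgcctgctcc
TXNRD1 promoter, chr12:104286905-104286963, plus strand: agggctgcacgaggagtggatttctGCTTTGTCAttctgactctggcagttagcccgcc
UGT1A6 promoter, chr2:233692767-233692825, plus strand: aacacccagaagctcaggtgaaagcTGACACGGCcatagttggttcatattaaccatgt
CYP4F11 promoter, chr19:15934990-15935048, minus strand: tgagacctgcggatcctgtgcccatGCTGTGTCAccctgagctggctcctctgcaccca
In 5 of these stretches (GCLM, GPX2, CBR1, TXNRD1 and CYP4F11) the core lies on the opposite strand, and the capitals show its reverse complement. In the same 5 the core, read on its own strand, is followed directly by an A. The GCLM, GPX2 and CBR1 cores start 34, 122 and 159 bases before the RefSeq start site.

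Levels are given as CPM, the count of a gene scaled to the same total count in every library. Library totals ranged from 25799359 to 102261808 counts, and 3 counts, taken as the limit that a count of 0 allows, correspond to 0.0293 to 0.116 CPM. Such limits cover counting error only, because PCR copies were not told apart by molecular identifiers. Among lineage markers, KRT7 lay at 1070 to 2440 CPM in the 9 A549 libraries, whereas NKX2-1, SFTPB, SFTPC and NAPSA, which mark alveolar cells, stayed at or below 4.88 CPM there, and NKX2-1 was at most 0.495 CPM in A549 against 1.15 to 2.38 CPM in 13 of the 15 HCT116 libraries. Of the 5 intestinal markers CDX2 was higher in these 13 libraries, at 13.9 to 23.6 CPM against at most 1.2 CPM in A549. CDX1 was at most 0.0426 CPM, CDH17 lay at 0.116 to 1.76 CPM against 5.21 to 16.3 CPM in A549, LGALS4 reached 0.218 CPM against 1.33 CPM in A549 and VIL1 reached 2.04 CPM against 6.94 CPM. The 5 markers summed to 15.9 to 25.4 CPM in HCT116 and 7.04 to 22.4 CPM in A549, and thus did not separate the lines as a list. Markers of leukocytes and endothelium summed to at most 2.3 CPM. The fibroblast sum was 7.76 to 73.3 CPM, nearly all of it COL1A1, while COL1A2 and DCN were at or near 0.

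The summed counts of the 40 genes separated the cell lines, with one exception. They made up 2.82% to 3.03% of all counts in A549 WT B. In the A549 KOs they made up 2.14% to 2.8% (MSTRG.4401.1) and 2.76% to 3.23% (MSTRG.2513.6). In 13 of the HCT116 libraries the share was 0.487% to 0.653%. The exception was a pair of libraries with the label HCT116 MSTRG.2513.6 KO, S8 and S9, in which the share was 3.15% and 3.14%, while it was 0.559% in the third library of that group, S11. CDKN2A, which is deleted in A549, had 0 counts in all 9 A549 libraries, 0.53 and 0.215 CPM in S8 and S9, and 37 to 59.6 CPM in the other 13 HCT116 libraries. S8 and S9 thus stand apart from S11 and go against their label as HCT116, and results that rest on them are given with and without them.

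**Figure D1:**
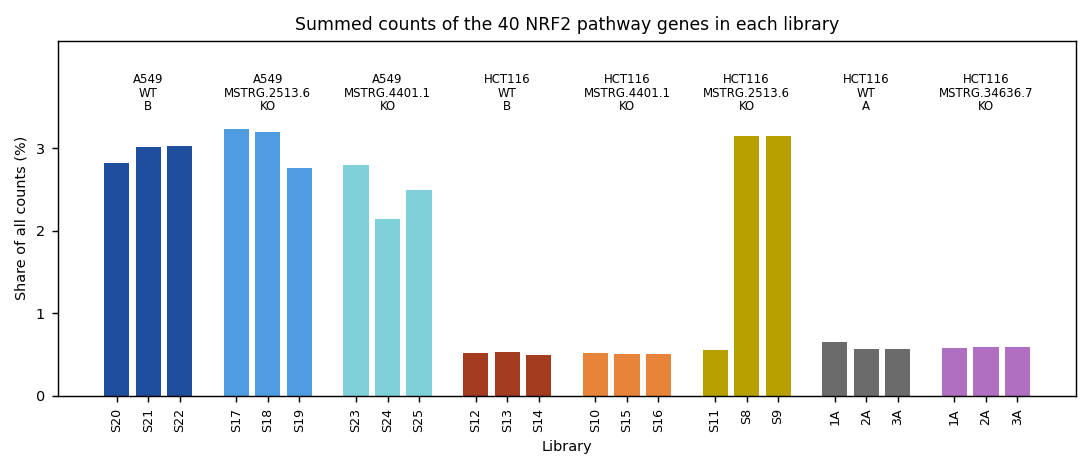
Share of all counts taken by the 40 NRF2 pathway genes (y axis, %) in each of the 24 libraries (x axis), 1 bar per library and 1 colour per group. The A549 libraries stand between 2.14% and 3.23%, S8 and S9 at 3.15% and 3.14%, and all other HCT116 libraries at 0.653% or below.

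Wild-type A549 and HCT116 were compared first, to show how the pathway differs between a KEAP1 mutant line and a line not described as such. Of the 40 genes, 33 were called higher in A549 and 0 lower, where a call needed FDR < 0.1 and |log2(fold change)| > 1 in edgeR's quasi-likelihood test. Of all 27882 genes tested, 35.7% were called, 17.2% as higher in A549 and 18.5% as lower. The median log2(fold change) of the 40 genes was 2.07 and that of all genes tested was -0.02. At FDR < 0.1 alone, 37 of the 40 genes were higher and 0 lower, against 31.2% and 31.7% of all genes. The CPM of the groups did not overlap for 36 genes with higher and 2 with lower values in A549 (KEAP1 and CYP4F11), against 66.0% of all genes tested. CPM is scaled to the library total and the fitted fold changes use TMM normalization in edgeR, so their signs can differ for small changes. The list was chosen with earlier results of these data known, so these counts are no independent test of it. Cell line, mutation state of KEAP1 and every other difference between the lines cannot be told apart here.

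The regulators themselves were not called. NFE2L2 lay at 86.3, 110 and 101 CPM in the A549 WT B libraries and at 107, 106 and 109 CPM in HCT116 WT B. These levels overlap, with a log2(fold change) of 0.14 ± 0.0702 (SE, n = 3 and 3; edgeR adjusted p = 0.12). KEAP1 lay at 90.8, 88.4 and 101 CPM in A549 and at 114, 106 and 101 CPM in HCT116, and its log2(fold change) was 0.06 ± 0.0667 (edgeR adjusted p = 0.489), of opposite sign at -0.0021 with upper-quartile normalization. MAFG lay at 110, 104 and 120 CPM in A549 and at 114, 108 and 103 CPM in HCT116, with a log2(fold change) of 0.30 ± 0.0704 (edgeR adjusted p = 0.00784), below the fold threshold. RNA levels do not report the amount or location of the NRF2 protein.

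The aldo-keto reductases, NADPH-dependent enzymes that reduce aldehydes, ketones and steroids, differed most as a role, and all 4 were called. AKR1C2 lay at 2657, 2883 and 3187 CPM in A549 WT B and at 0.801, 1.2 and 0.832 CPM in HCT116 WT B. Every A549 library was thus far above every HCT116 library, with a log2(fold change) of 11.83 ± 0.202 (edgeR adjusted p = 4.13e-08). AKR1C3, which also makes androgens and prostaglandin F, lay at 1176, 1312 and 1406 CPM in A549 and at 0.21, 0.577 and 0.0333 CPM in HCT116, a log2(fold change) of 12.42 ± 0.554 (edgeR adjusted p = 1.71e-06). AKR1B10, a retinal and aldehyde reductase, gave 10.95, and AKR1C1, which inactivates progesterone, gave 8.60. The AKR1C genes lie side by side on chromosome 10 (AKR1C2, hg38 chr10:4987775-5018031). They share sequence, and 36% of the 75-base stretches of AKR1C2 and 16.8% of those of AKR1C1 also occur in other genes, so counts may be split between them.

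Several members had almost no counts in HCT116. ALDH1A1, which oxidizes retinal to retinoic acid, lay at 5936, 6347 and 6228 CPM in A549 WT B and at 0, 0.0623 and 0 CPM in HCT116 WT B. The pooled HCT116 WT B libraries held 4 counts of ALDH1A1 against 985753 in A549 WT B, a ratio of 272344 with an exact 95% counting interval of 106367 to 999552. CBR1, a carbonyl reductase of quinones, prostaglandins and anthracyclines, lay at 85.7, 84.6 and 80.6 CPM in A549 and had 2 counts in all of HCT116 WT B, a ratio of 7419 (exact 95% interval 2053 to 61265). UGT1A6, which conjugates phenols with glucuronic acid, had 4 counts in HCT116 WT B against 507 in A549, a ratio of 140 (exact 95% interval 54.4 to 516). The fitted log2(fold change) of these genes, 18.17 for ALDH1A1, 12.83 for CBR1 and 7.26 for UGT1A6, depends on the prior count of the fit. Set against 3 counts per library they gave 16.88, 10.67 and 5.97. All these values still lie above the median of the 40 genes, which therefore could not move from 2.07. Of the UGT1A6 stretches 59.3% also occur in UGT1A3, its neighbour with shared exons, and 27.1% of those of CBR1 occur in an overlapping gene. ALDH3A1, an aldehyde dehydrogenase of the cornea and of tumour cells, was higher by 9.50 ± 0.198 and ALDH3A2, which oxidizes fatty aldehydes, by 1.38 ± 0.0509 on the log2 scale.

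In glutathione metabolism 4 of 5 genes were called. SLC7A11, which imports cystine, lay at 630, 804 and 817 CPM in A549 WT B and at 91.3, 80.4 and 81.9 CPM in HCT116 WT B (log2(fold change) 3.41 ± 0.0888). GPX2, a glutathione peroxidase of epithelia, differed by 2.99 ± 0.245, and GCLC and GCLM, the catalytic and modifier subunits of glutamate-cysteine ligase, by 1.34 ± 0.0498 and 2.34 ± 0.545. GCLM was uneven in HCT116 WT B, at 8.45, 30.4 and 7.87 CPM. GSR, which regenerates glutathione, was below the fold threshold at 0.77 ± 0.064.

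In the thioredoxin system 3 of 4 genes were called. TXNRD1, thioredoxin reductase, lay at 1425, 1529 and 1579 CPM in A549 WT B and at 402, 406 and 408 CPM in HCT116 WT B, a log2(fold change) of 2.16 ± 0.0557. TXN (1.16) and SRXN1 (1.36), which repairs oxidized peroxiredoxins, were called and PRDX1 (0.70) was not, and 90.5% of the SRXN1 stretches lie in an overlapping annotated gene. Of the 4 NADPH genes, PGD of the pentose phosphate pathway was highest at 3.13 ± 0.0733, followed by TKT (1.61) and TALDO1 (1.40), whereas malic enzyme ME1 (0.91) was below the fold threshold.

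The remaining roles were higher in A549 throughout, with CYP4F11 as the only gene whose log2(fold change) was below 0. NQO1, the quinone reductase that is the usual readout of NRF2, lay at 1176, 1269 and 1277 CPM in A549 WT B and at 416, 403 and 401 CPM in HCT116 WT B (1.87 ± 0.0555). The exporters of glutathione and glucuronide conjugates were called in 3 of 3, at 3.81 for ABCC3, 2.17 for ABCC2 and 1.52 for ABCC1. Genes of heme and iron were also called in 3 of 3, HMOX1, which degrades heme, at 3.10, the ferritin light chain FTL at 3.00 and the heavy chain FTH1 at 1.02. FTH1 shares 31.5% of its stretches with other genes, mostly processed copies. UGDH, which makes UDP-glucuronic acid, gave 3.27 and the epoxide hydrolase EPHX1 1.98. TRIM16L gave 4.59, PIR 1.61 and OSGIN1 1.19, and 39.6% of the TRIM16L stretches also occur in TRIM16. Of the fatty acid hydroxylases of the cytochrome P450 4F family, CYP4F3 was called at 1.56 ± 0.40 and CYP4F11 was not (-0.12 ± 0.181, edgeR adjusted p = 0.611).

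**Figure D2:**
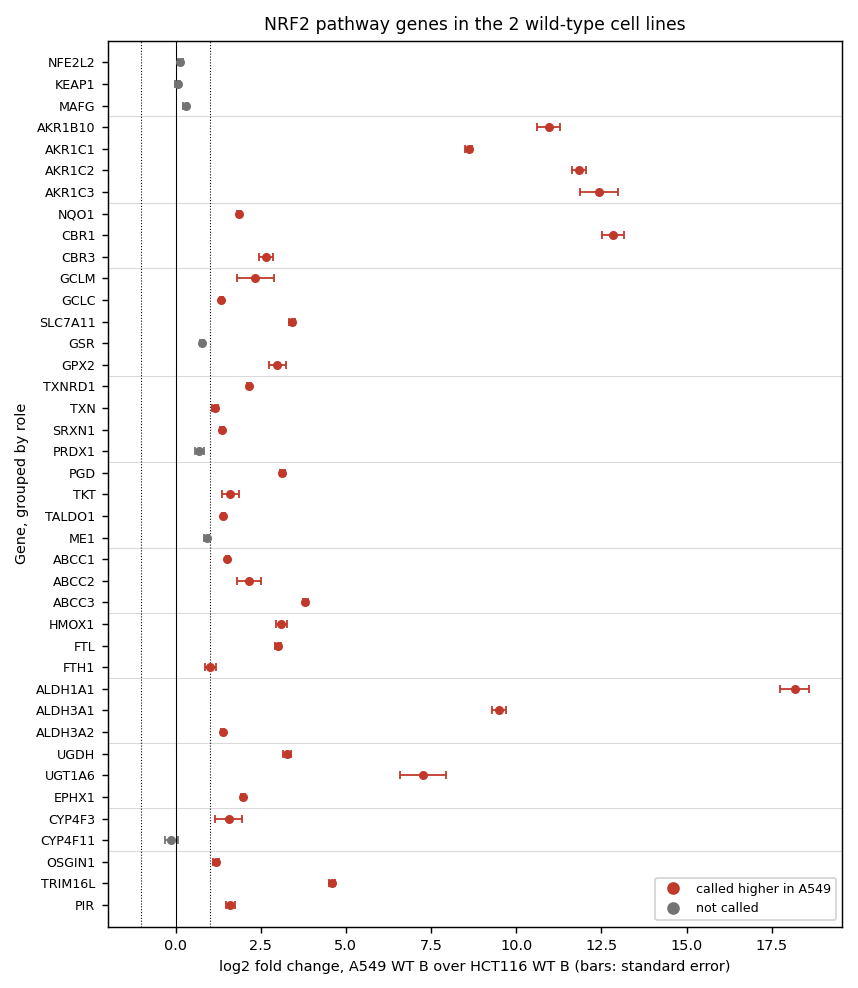
log2(fold change) of A549 WT B over HCT116 WT B (x axis, with SE bars; 3 libraries per group) for the 40 genes ordered by role (y axis), red for genes called higher in A549 and grey for genes not called; dotted lines mark -1 and 1. All 33 called genes lie to the right of 1, and the regulators NFE2L2, KEAP1 and MAFG lie between 0.06 and 0.30.

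The ranking of the genes by level also differed between the lines. Per kilobase of annotated exon, FTL was the most abundant of the 40 in both, at 3625 ± 87.1 CPM per kb (SD, n = 3) in A549 WT B and 544 ± 29.9 in HCT116 WT B. Next came ALDH1A1 (2173 CPM per kb), AKR1B10 (1153) and FTH1 (608) in A549, and FTH1 (361), PRDX1 (304), TXN (199) and NQO1 (137) in HCT116. CYP4F3 and UGT1A6 were the lowest in A549 and CBR1 and UGT1A6 in HCT116. The length used takes in all annotated exons of a gene, for NFE2L2 14975 bases against 2446 in its canonical transcript. The order between genes depends on this choice.

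With HCT116 WT A as the control in place of WT B, 29 of the 40 genes were called higher and 0 lower (38.7% of all genes called). GCLM (0.61), GCLC (0.81), ABCC2 (0.75), FTH1 (0.37) and CYP4F3 (0.76) then fell below the fold threshold, and CYP4F11 rose above it (1.32, edgeR adjusted p = 0.00776).

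Other genes of the pathway, not among the 40 but also chosen with earlier results known, followed the same count in part. Of 13 further regulators, 2 were called higher in A549 and 1 lower, with a median log2(fold change) of 0.07. The higher ones were SQSTM1, an autophagy receptor that binds KEAP1 (1.68 ± 0.0588), and MAFK, a small MAF protein (1.49 ± 0.0487), and the lower one was the small MAF protein MAFF (-1.28 ± 0.123). BACH1, a repressor at the same elements, gave -0.31 ± 0.057. Of 24 further targets, 17 were called higher and 1, the stress gene SESN2 (-1.23 ± 0.105), lower, with a median of 1.59. NR0B1, a nuclear receptor without a DNA binding domain, lay at 38.4, 41.8 and 39.3 CPM in A549 WT B and had 0 counts in 13 of the 15 HCT116 libraries, all but S8 and S9. Its level in A549 was at least 776-fold higher than 3 counts in each HCT116 WT B library. CES1, a carboxylesterase of drugs and esters, lay at 24.5, 24.6 and 24.9 CPM in A549 against 0 counts in HCT116 WT B, at least 481-fold higher by the same measure.

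**Figure D3:**
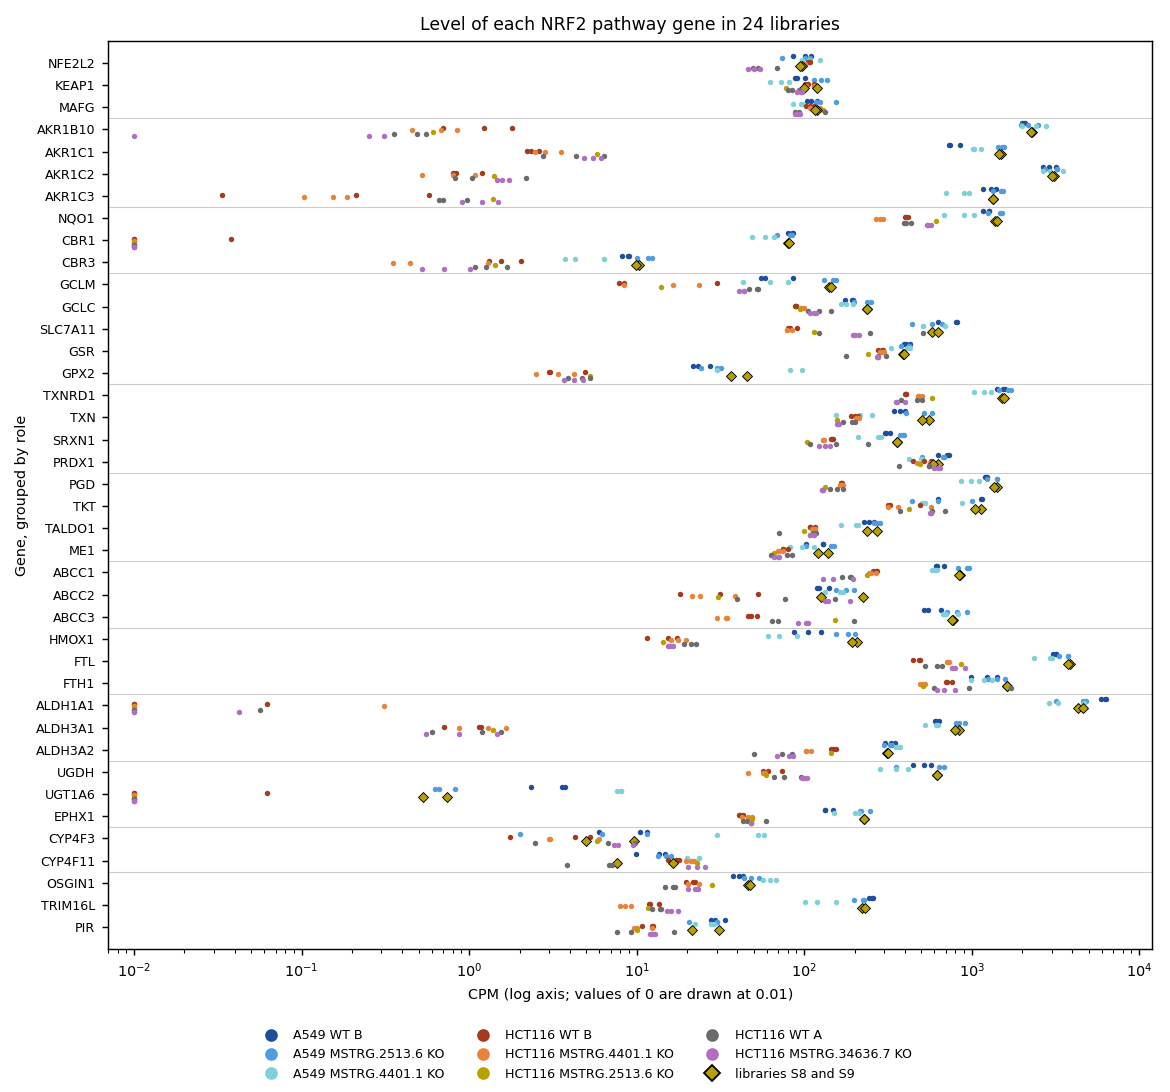
CPM of each of the 40 genes (y axis, grouped by role) in each of the 24 libraries (x axis, log scale, values of 0 drawn at 0.01), 1 point per library and 1 colour per group, with S8 and S9 as outlined diamonds. For AKR1C2 the A549 libraries lie between 2657 and 3491 CPM and S8 and S9 at 3108 and 3011 CPM, while the other HCT116 libraries lie at 2.18 CPM or below.

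A549 MSTRG.2513.6 KO was compared with A549 WT B to ask whether the DBD KO moved the pathway in a line where it is already high. GCLM was called higher and UGT1A6 lower, 2 of 40 genes, against 2.92% of all 25666 genes tested (1.13% higher and 1.79% lower). At FDR < 0.1 alone 8 genes were higher (KEAP1, AKR1C1, GCLM, ABCC1, ABCC3, HMOX1, ALDH3A1 and EPHX1) and 1 was lower, where 2.77% of all genes were higher and 3.19% lower. The median log2(fold change) of the 40 genes was 0.18 and that of all genes -0.03.

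GCLM lay at 155, 149 and 131 CPM in the KO and at 58.8, 85.6 and 55.3 CPM in WT B. All KO libraries were higher, by 1.12 ± 0.185 on the log2 scale (edgeR adjusted p = 0.0186), and the value was 0.97, under the fold threshold, without library S22. UGT1A6 lay at 0.626, 0.821 and 0.663 CPM in the KO and at 2.33, 3.72 and 3.58 CPM in WT B, and fell by 2.18 on the log2 scale (SE 0.258, edgeR adjusted p = 0.00479). Genes at smaller changes are named for their FDR after their values were seen. AKR1C1 lay at 1509, 1562 and 1430 CPM in the KO against 733, 744 and 857 CPM (0.95 ± 0.104, edgeR adjusted p = 0.00341). HMOX1 lay at 183, 200 and 156 CPM against 87.6, 106 and 127 CPM, with a log2(fold change) of 0.76 ± 0.143. EPHX1 gave 0.72 ± 0.0999, ABCC1 0.51 ± 0.0962, ABCC3 0.51 ± 0.116, ALDH3A1 0.46 ± 0.0996 and KEAP1 0.43 ± 0.0946. NQO1 (0.20, edgeR adjusted p = 0.483) and TXNRD1 (0.10, edgeR adjusted p = 0.743) did not pass the test. Among the further targets CES1 was called higher at 89.7, 106 and 92.4 CPM against 24.5, 24.6 and 24.9 CPM (1.96 ± 0.11), and none of 24 was called lower. None of the 13 further regulators was called.

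A549 MSTRG.4401.1 KO showed another set of values. Here 4 of 40 genes were called, 3 higher and 1 lower, against 15.4% of all 24979 genes tested (11.1% higher and 4.32% lower). CYP4F3, which inactivates leukotriene B4, lay at 30.3, 52.7 and 57.4 CPM in the KO and at 5.96, 11.6 and 10.5 CPM in WT B (2.27 ± 0.301, edgeR adjusted p = 0.00153). GPX2 lay at 96.7, 30 and 82.4 CPM against 27.5, 21.8 and 23.4 CPM, so that library S24 stayed close to wild type (1.44 ± 0.365, edgeR adjusted p = 0.0183). UGT1A6, lower in the other KO, was higher in this one, at 8.07, 7.6 and 8.04 CPM against 2.33, 3.72 and 3.58 CPM (1.23 ± 0.208, edgeR adjusted p = 0.0039). TRIM16L lay at 154, 101 and 120 CPM against 245, 257 and 254 CPM and fell by 1.10 on the log2 scale (SE 0.147, edgeR adjusted p = 0.00158). It fell by 0.94, and was not called, with upper-quartile normalization, and by 0.97 without library S24.

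At FDR < 0.1 alone, 7 genes were higher and 19 lower, where 21.3% of all genes were higher and 22.4% lower. This split depended on the scaling: it was 11 higher and 12 lower with upper-quartile normalization, which moved the median log2(fold change) of all genes from 0.12 to 0.28. The median of the 40 genes was -0.28, which is 0.39 below that of all genes. It was also 0.39 below with upper-quartile normalization and with DESeq2. A change of scaling moves all genes by nearly the same amount, so this difference could hardly change and is no check on the scaling. Of the regulators, KEAP1 (-0.45 ± 0.127, edgeR adjusted p = 0.0272) and MAFG (-0.35 ± 0.109, edgeR adjusted p = 0.0409) were lower and NFE2L2 (0.07) did not pass, and with upper-quartile normalization KEAP1 (-0.29) still passed and MAFG (-0.18) did not. Among the other roles, the lower genes included all 3 quinone and carbonyl reductases (NQO1 -0.59, CBR1 -0.61, CBR3 -0.94), all 4 of the thioredoxin system (TXN -0.93, PRDX1 -0.62, TXNRD1 -0.44, SRXN1 -0.36) and all 4 of NADPH supply (TKT -0.68, TALDO1 -0.41, PGD -0.39, ME1 -0.37). With upper-quartile normalization all these values stayed below 0, 3 of 3 reductases and 3 of 4 genes of the thioredoxin system still passed, and 0 of 4 NADPH genes did. None of the 3 exporters passed, whereas 2 of 3 were higher at FDR < 0.1 with upper-quartile normalization. HMOX1 (-0.60 ± 0.155), UGDH (-0.62 ± 0.148), AKR1C3 (-0.67 ± 0.147) and ALDH1A1 (-0.86 ± 0.193) were also lower, while AKR1C1 (0.37), EPHX1 (0.37), OSGIN1 (0.56) and CYP4F11 (0.72) were higher. These libraries were the shallowest and held 3.5%, 7.87% and 6.93% of their counts in mitochondrial genes, against 1.96% to 2.37% in A549 WT B. The part of depth and of the mitochondrial share in these values was not tested.

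Among the further targets, AKR1B1, the aldose reductase, lay at 930, 650 and 733 CPM against 2034, 2051 and 2080 CPM in WT B and fell by 1.50 on the log2 scale (SE 0.153). CES1 lay at 0.241, 0 and 0 CPM against 24.5 to 24.9 CPM, and both were called lower (CES1 edgeR adjusted p = 9.57e-05). Of the 13 further regulators 1 was higher and 9 were lower at FDR < 0.1 alone, or 3 and 4 with upper-quartile normalization. MAFK was the only one called, at 361, 480 and 478 CPM against 192, 195 and 214 CPM (1.06 ± 0.145).

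The KOs of A549 were also compared with each other, which needs no wild type. Both were compared above with the same A549 WT B libraries, so their values against wild type are not independent. Between the KOs 7 of 40 genes were called, against 16.6% of all 25161 genes tested (5.75% higher and 10.9% lower in MSTRG.2513.6 KO). Higher in MSTRG.2513.6 KO than in MSTRG.4401.1 KO were HMOX1 (183, 200 and 156 against 90.6, 60.9 and 70.7 CPM, log2(fold change) 1.42 ± 0.179), TXN (579, 517 and 406 against 253, 156 and 216 CPM, 1.41 ± 0.223), GCLM (1.37 ± 0.221) and CBR3 (1.37 ± 0.253). Of the 40 genes, 21 had higher and 5 lower CPM in MSTRG.2513.6 KO without overlap of the groups, against 45.4% of all genes tested. These 4 genes were among the 21, but they were picked for their differences. Called lower were UGT1A6 (-3.34 ± 0.232, edgeR adjusted p = 5.73e-05), CYP4F3 (-2.72 ± 0.532) and GPX2 (-1.14 ± 0.375). GPX2 was not called without S18, S23 or S25, at -1.16, -0.85 and -0.97. At FDR < 0.1 alone 23 genes were higher and 4 lower in MSTRG.2513.6 KO, or 18 and 6 with upper-quartile normalization, where the median of all genes moved from -0.09 to -0.29. Over all genes 19.8% were higher and 17.4% lower. CES1 (10.11 ± 0.528) and AKR1B1 (2.10 ± 0.185) were called higher among the further targets.

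**Figure D4:**
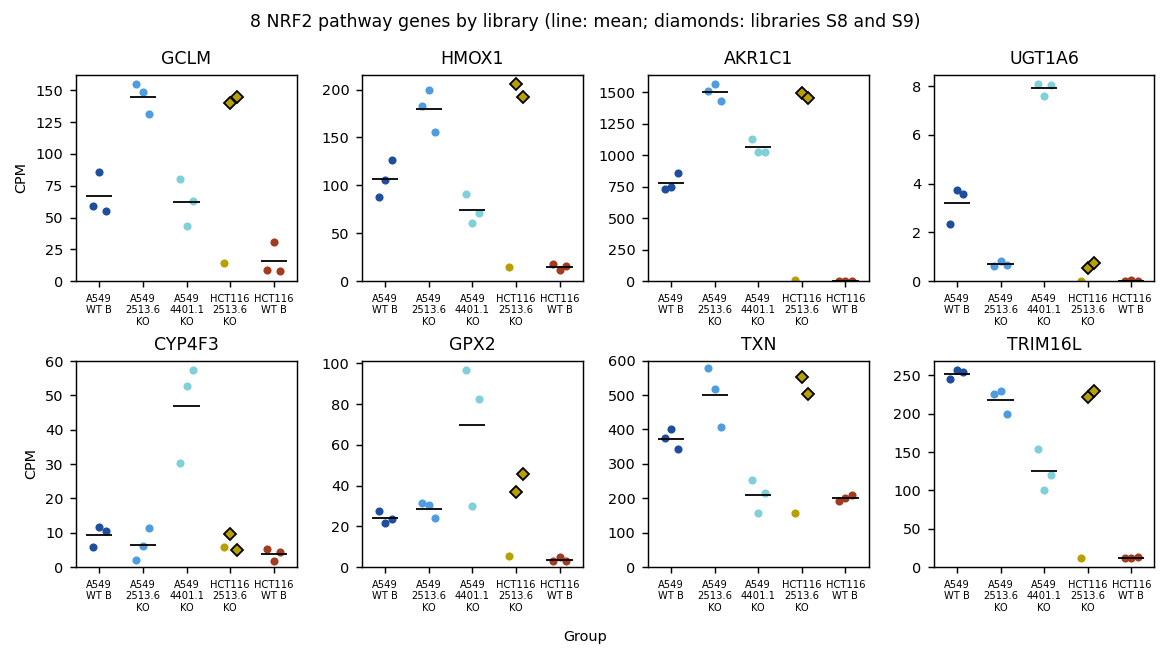
CPM of 8 genes (y axes from 0) by library in the 3 A549 groups, the group of 3 with the label HCT116 MSTRG.2513.6 KO and HCT116 WT B (x axes); lines are means of 3 libraries and outlined diamonds are S8 and S9. UGT1A6 lies below 1 CPM in A549 MSTRG.2513.6 KO, S8 and S9 and near 8 CPM in the other A549 KO.

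In HCT116, MSTRG.4401.1 KO was compared with WT B. Of 36 genes tested (AKR1C3, CBR1, ALDH1A1 and UGT1A6 had too few counts), 0 were called by edgeR, against 2.62% of all 26615 genes. An unadjusted p under 0.05 in edgeR was found for 12 of the 36 and for 6836 of all genes. DESeq2 called 1, CBR3, and its share over all genes is not given here. At FDR < 0.1 alone 3 genes were higher and 7 lower, where 7.57% of all genes were higher and 8.72% lower. NQO1 lay at 268, 295 and 282 CPM in the KO against 416, 403 and 401 CPM, and fell by 0.54 on the log2 scale (SE 0.0433, edgeR adjusted p = 0.000394). The ferritin chains went opposite ways. FTL lay at 709, 721 and 735 CPM against 490, 487 and 444 CPM (0.59 ± 0.0498), and FTH1 at 512, 528 and 489 CPM against 701, 762 and 710 CPM (-0.52 ± 0.0593). ABCC3 (-0.58), TRIM16L (-0.56), ALDH3A2 (-0.53), SRXN1 (-0.18) and NFE2L2 (-0.12) were lower, and CYP4F11 (0.31) and TXNRD1 (0.26) higher, although NFE2L2 did not pass with upper-quartile normalization or DESeq2. The median of the genes tested was -0.01, that of all genes 0.00. With WT A as the control 7 genes were called, 1 higher and 6 lower, against 10.2% of all genes (AKR1C3, GCLM, SLC7A11, ABCC2, ABCC3, FTH1 and CYP4F11).

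The effect of MSTRG.4401.1 KO was then tested for a difference between the lines. At FDR < 0.1 in the interaction test 19 of 40 genes differed, against 26.9% of all 30134 genes. FTL gave -0.27 in A549 and 0.59 in HCT116, a difference of -0.89 ± 0.168 (edgeR adjusted p = 0.00339). TXNRD1 gave -0.44 in A549 and 0.26 in HCT116 (difference -0.74 ± 0.135). ABCC3 gave 0.28 in A549 and -0.58 in HCT116 (difference 0.82 ± 0.126), and ALDH3A2 gave 0.09 and -0.53 (difference 0.58 ± 0.0951). TXN gave -0.93 and 0.04 (difference -0.99 ± 0.217), HMOX1 -0.60 and 0.24 (difference -0.87 ± 0.24) and PRDX1 -0.62 and 0.06 (difference -0.71 ± 0.185). NQO1 fell in both lines, by 0.59 and 0.54, with a difference of -0.07 ± 0.181 (edgeR adjusted p = 0.847). The interaction of UGT1A6 (4.36) rests on the 4 counts of HCT116 WT B and was 1.19 without library S13.

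MSTRG.34636.7 KO was compared with HCT116 WT A. Only CYP4F11 was called, 1 of 37 genes tested, against 1.34% of all 28816 genes. An unadjusted p under 0.05 in edgeR was found for 7 of the 37 and for 4319 of all genes. CYP4F11, which hydroxylates long-chain fatty acids and vitamin K, lay at 22.8, 20.3 and 25.7 CPM in the KO and at 3.82, 6.85 and 7.16 CPM in WT A, a log2(fold change) of 1.94 ± 0.261 (edgeR adjusted p = 0.0205). Its level in WT B was 17.1, 15.3 and 17.9 CPM, and against WT B the value was 0.44 and not called. It was also not called without KO library 3A, at 1.82. With WT B as the control 10 of the 40 genes were called, 7 higher and 3 lower, against 14.5% of all genes, and CYP4F11 was not among them. The median of the genes tested was -0.04 and that of all genes -0.02.

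The wild types of HCT116 were compared with each other to show how far 2 unedited groups differ. WT A against WT B gave 5 called genes of 37 tested, 2 higher and 3 lower, against 7.06% of all 27280 genes (3.16% higher and 3.90% lower). SLC7A11 lay at 514, 249 and 123 CPM in WT A and at 91.3, 80.4 and 81.9 CPM in WT B (1.79 ± 0.434, edgeR adjusted p = 0.0426), with library 1A far above the others. GCLM lay at 52.5, 52.9 and 46.6 CPM against 8.45, 30.4 and 7.87 CPM (1.67 ± 0.497, edgeR adjusted p = 0.0868). CYP4F11 fell by 1.50 on the log2 scale (SE 0.252), AKR1B10 by 1.42 (SE 0.407) and ALDH3A2, at 74.3, 84.9 and 50.3 CPM against 156, 149 and 145 CPM, by 1.12 (SE 0.175). NFE2L2 itself lay at 69.3, 53.3 and 49.4 CPM in WT A against 107, 106 and 109 CPM in WT B, with no overlap (-0.91 ± 0.15, edgeR adjusted p = 0.00721), and at 50.4, 46.4 and 54.3 CPM in MSTRG.34636.7 KO. Library 1A of WT A also stood apart for FTH1 (1719 against 597 and 966 CPM) and ABCC3 (198 against 64.7 and 70 CPM). Of these calls GCLM and AKR1B10 were lost when any of 5 libraries was left out (GCLM without S12, S14, 1A, 2A or 3A; AKR1B10 without S12, S13, 1A, 2A or 3A), SLC7A11 without S12, S13 or S14, and ALDH3A2 without 3A. The wild types differ in library numbering, and their cultures, preparation and sequencing cannot be told apart.

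**Figure D5:**
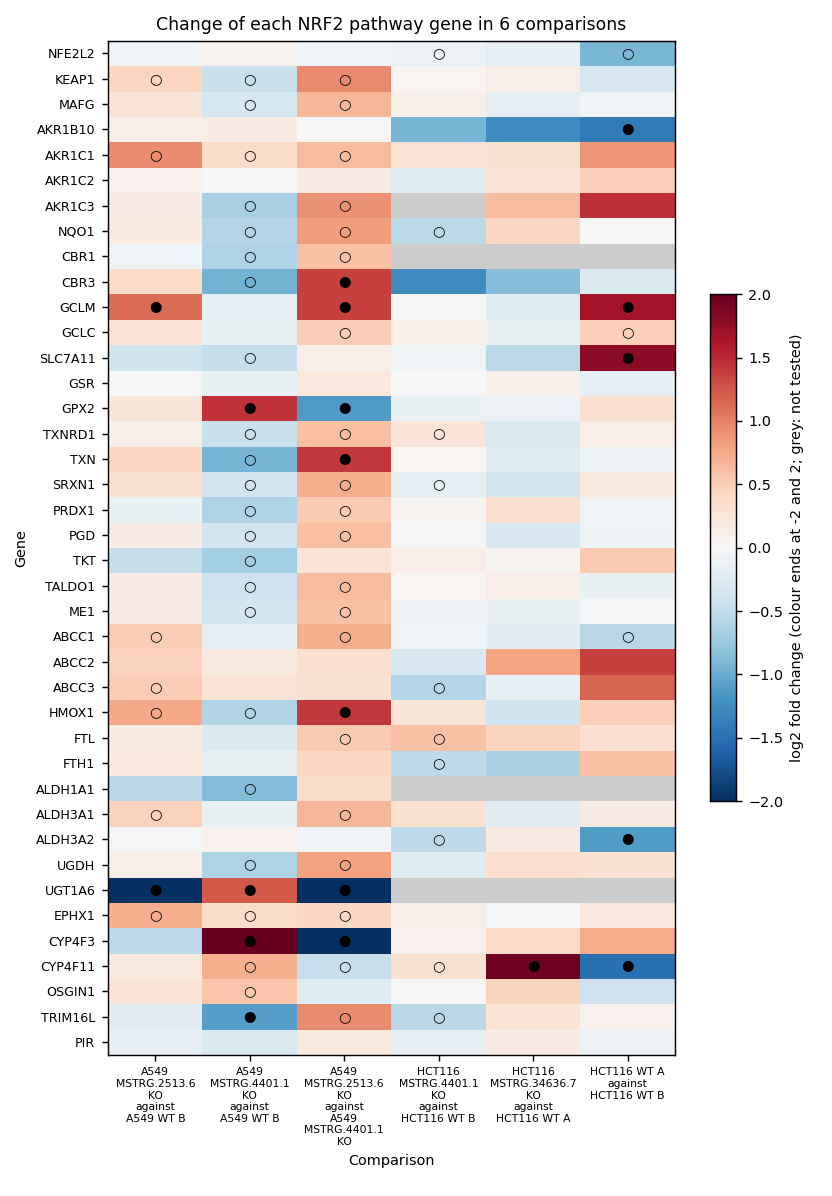
log2(fold change) of the 40 genes (rows) in 6 comparisons (columns; 3 libraries per group), red for higher and blue for lower in the first-named group, with colour ending at -2 and 2 and grey for genes not tested. Filled circles mark genes called at FDR < 0.1 and |log2(fold change)| > 1 and open circles those at FDR < 0.1 alone; UGT1A6 is -2.18 in the first column and 1.23 in the second, and CYP4F11 is 1.94 in the fifth and -1.50 in the sixth.

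The group with the label HCT116 MSTRG.2513.6 KO gave 0 called genes of 37 tested against WT B by edgeR. Of all 26374 genes edgeR called 0.933%. An unadjusted p under 0.05 in edgeR was found for 26 of the 37 and for 5456 of all genes. DESeq2 called 23, and its share over all genes is not given here. The median log2(fold change) of the genes tested was 1.75 and that of all genes -0.02. NQO1 lay at 611 CPM in S11 and at 1385 and 1411 CPM in S8 and S9, and AKR1C1 at 5.83 CPM in S11 and at 1492 and 1457 CPM in S8 and S9. Without S11, 34 of the 40 genes were called higher in S8 and S9 than in HCT116 WT B (37.2% of all genes called). Of the 40 genes, 31 in S8 and 27 in S9 lay within the range of the A549 MSTRG.2513.6 KO libraries, 9 and 12 within that of A549 WT B, 7 each within that of A549 MSTRG.4401.1 KO, and 1 each within that of HCT116 WT B. Such counts were made for the 40 genes only and depend on how far the libraries of a group spread. Over all gene symbols, the mean Pearson correlation of log2(CPM + 1) in S8 and S9 was 0.991 with A549 WT B. With HCT116 WT B it was 0.926 in both. For S11 these correlations were 0.92 and 0.986. GCLM at 140 and 145 CPM, UGT1A6 at 0.53 and 0.74 CPM and HMOX1 at 206 and 192 CPM in S8 and S9 lay near the A549 MSTRG.2513.6 KO values given above, as did CES1 at 101 and 97.7 CPM and AKR1B1 at 2885 and 2806 CPM.

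S11 lay within the range of HCT116 WT B for 10 of the 40 genes, of HCT116 WT A for 17 and of A549 WT B for 1. By distance from the group means the order of the HCT116 wild types was the other way. The root mean square difference of S11 in log2(CPM + 1) over the 40 genes was 0.47 to HCT116 WT B, 0.63 to HCT116 WT A and 4.21 to A549 WT B. For S8 and S9 it was 0.22 and 0.24 to A549 MSTRG.2513.6 KO and 4.47 and 4.48 to HCT116 WT B. With S8 and S9 left out, AKR1C1 (1.20, edgeR adjusted p = 0.014) and ABCC3 (1.56, edgeR adjusted p = 0.000515) were called higher in S11 than in HCT116 WT B, 2 of 40 genes, against 8.69% of all genes tested. ABCC3 lay at 153 CPM in S11 and at 52.4, 46.1 and 48.4 CPM in WT B. At FDR < 0.1 alone 17 of 37 genes tested passed, 7 higher and 10 lower, where 12.7% of all genes were higher and 15.9% lower. In this fit the lone library is assumed to vary as the wild-type libraries do. With all libraries as labelled, the interaction test of MSTRG.2513.6 KO passed for 15 of 40 genes, against 9.88% of all 29852 genes. All 15 differences, A549 minus HCT116, were below 0. S8 and S9, which go against their label, were in this test, so its values cannot be read as a KO effect in HCT116. Without S8 and S9 the HCT116 KO is library S11 alone, so every difference rests on 1 library and no count is given. Genes above 0 then included KEAP1, TXN, SRXN1, PGD, TALDO1, ABCC1, HMOX1 and EPHX1, and genes below 0 included ABCC3 and FTL. KEAP1 then gave 0.96 and ABCC3 -1.05 as the difference on the log2 scale.

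With all libraries kept, edgeR called no member in the same direction in more than 1 of the KO comparisons with wild type. Without S11, 4 genes called higher in S8 and S9 than in HCT116 WT B were also called higher in an A549 KO. These were GCLM in that of MSTRG.2513.6 and CYP4F3, GPX2 and UGT1A6 in that of MSTRG.4401.1. They are all the members called higher in the A549 KOs. Most members were called higher in the fit without S11, where 37.2% of all genes were called in either direction. S8 and S9 go against their label, so the overlap does not test for a shared KO effect. UGT1A6 in S8 and S9 also lay below its A549 WT B level. With all libraries UGT1A6 was called in both A549 KOs in opposite directions, and CYP4F3, GPX2, GCLM, TRIM16L and CYP4F11 in 1 comparison each. NFE2L2 was not called in any of these comparisons.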

How the data were processed

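RNA-seq libraries of A549 and HCT116 (24 libraries, 8 groups of 3) were placed in their groups by their sample labels. The authors removed ribosomal RNA, used a strand-specific kit, and deposited raw counts of each gene symbol as whole numbers, neither normalized nor pooled. Per the labels, reads were processed with Trim Galore 0.6.6, FastQC 0.11.9 and HISAT2 2.2.1 on hg38. The annotation release and the use of strand in counting are not given in the sources used here. Overlapping, antisense and duplicated genes are therefore uncertain. Library totals were 25799359 to 102261808 counts.

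From the deposited counts, CPM was computed on the library total. For every comparison the libraries of its groups were fitted on their own with edgeR 4.0.16 (R 4.3.3, limma 3.58.1), with TMM normalization, filterByExpr, the quasi-likelihood test and Benjamini-Hochberg adjustment over all genes tested. Genes were called at FDR < 0.1 and |log2(fold change)| > 1, and differences between the cell lines by an interaction term at FDR < 0.1. The SE of a log2(fold change) was its size divided by the square root of the test's F. The 24 pairs of libraries within groups differed by more than sampling noise (chi-square per degree of freedom of 14.2 or more). The tests were checked on simulated counts.

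The 40 genes, the further regulators and targets and the tests were chosen with earlier results of these data known. NFE2L2, KEAP1 and MAFG, up to 4 called genes with the largest and up to 4 with the most negative change in each comparison, up to 3 genes called alike in the most KOs and the genes of the interactions were named, with 2 called genes at either end of each of the other lists in the comparison of the lines. Alternatives were DESeq2 1.42.0, upper-quartile normalization, no filter, at least 10 counts in every library, FDR < 0.05, no fold threshold, 1 library left out, the other HCT116 wild type, S8 and S9 left out, 1 fit per cell line and a replicate block. Gene positions and exon lengths came from GENCODE v44, to which all 40 genes matched, and promoters from RefSeq (GRCh38.p14).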

Additional observations from a re-analysis of the deposited data

Results flagged for a closer look

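The results below are genes whose change from wild type to KO, with libraries as labelled, differed between A549 and HCT116. The interaction test in edgeR was used (adjusted p under 0.1). Each value is the log2(fold change) in A549 minus that in HCT116.

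For MSTRG.4401.1 KO 19 of 40 genes differed. The difference was above 0 for UGT1A6 (4.36), CYP4F3 (2.14), GPX2 (1.55), AKR1B10 (1.04), ABCC3 (0.82), ALDH3A2 (0.58) and OSGIN1 (0.52). It was below 0 for TXN (-0.99), FTL (-0.89), HMOX1 (-0.87), TXNRD1 (-0.74), PRDX1 (-0.71), TRIM16L (-0.57), KEAP1 (-0.53), MAFG (-0.49), TALDO1 (-0.48), SLC7A11 (-0.42), PGD (-0.40) and GCLC (-0.28). With upper-quartile normalization 17 differed, 8 above and 9 below 0. In HCT116 UGT1A6 had 0 counts in this KO and 4 in WT B.

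For MSTRG.2513.6 KO the test includes libraries S8 and S9, which go against their label as HCT116. Its values therefore cannot be read as a KO effect in HCT116. In this test 15 of 40 genes differed, all below 0. They were ALDH1A1 (-17.69), CBR1 (-12.28), AKR1C3 (-11.74), AKR1C2 (-11.27), AKR1B10 (-10.43), ALDH3A1 (-8.89), AKR1C1 (-8.02), UGT1A6 (-6.55), TRIM16L (-4.11), ABCC3 (-3.27), SLC7A11 (-3.05), GPX2 (-3.02), FTL (-2.64), TXNRD1 (-1.73) and NQO1 (-1.51). With S8 and S9 left out the HCT116 KO is library S11 alone, and the difference was then -1.05 for ABCC3 and -0.59 for FTL.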

How the results depend on the processing

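In the comparison of the lines 28 to 33 genes were called, all higher, under the settings that kept the fold threshold, and 37 without it. KEAP1 was of opposite sign with upper-quartile normalization (-0.0021). Without the fold threshold 26 and 10 genes passed for MSTRG.4401.1 KO of A549 and HCT116, 9 for MSTRG.2513.6 KO of A549, 8 in WT A against WT B and 27 between the A549 KOs. HCT116 MSTRG.4401.1 KO had 1 call by DESeq2 and 7 against WT A, and MSTRG.34636.7 KO 10 against WT B. At FDR < 0.05 there were 3 calls in WT A against WT B, and the interactions passed for 12 (MSTRG.4401.1) and 8 (MSTRG.2513.6) genes. HCT116 MSTRG.2513.6 KO had 23 calls by DESeq2, 1 with upper-quartile normalization, 8 with at least 10 counts in every library, 2 against WT A, 2 without S8 and S9 and 27 with all HCT116 libraries in 1 fit. With 1 library left out, the counts were 32 to 33 for the lines, 3 to 6 (MSTRG.4401.1 KO) and 1 to 3 (MSTRG.2513.6 KO) in A549, 0 to 1 and 0 to 34 for the same KOs in HCT116, 0 to 2 for MSTRG.34636.7 KO, 2 to 5 for the wild types, 6 to 9 between the A549 KOs, and 12 to 18 and 0 to 35 for the interactions of MSTRG.4401.1 and MSTRG.2513.6. The counts of 34 and 35 came without S11. In the fit that gave 34, 37.2% of all genes were called. The interaction of MSTRG.2513.6 had 0 without S12, S14, S17 or S18, 2 without S13, 3 without S19 and 6 to 8 without S8, S9, S20, S21 or S22, and that of MSTRG.4401.1 had 12 without S10, S13 or S21. A549 MSTRG.2513.6 KO had 1 without S22, HCT116 MSTRG.4401.1 KO 1 without S16, and MSTRG.34636.7 KO 0 without KO library 3A and 2 without WT A library 2A. Without S8 and S9 the HCT116 KO of MSTRG.2513.6 is library S11 alone. Its interaction then turned to 1.22 for AKR1B10, 2.36 for CBR1, 2.76 for ALDH1A1, 0.11 for ALDH3A1 and 1.13 for UGT1A6. The causes were not tested. Of 771 values of named genes under the alternatives, 548 kept their direction and their side of the threshold, 217 kept only the direction and 6 were reversed.

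Replicate numbers did not pair the libraries (correlation of same-numbered deviations -0.08 to 0.04). With the replicate number as a block the counts were 32 for the lines, 1 for MSTRG.34636.7 KO and 4 for the wild types, where AKR1B10 was no longer called. The other comparisons share no replicate numbers. Depth limits the genes near 0 in HCT116, whose folds carry wide counting intervals.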
